A study of Triticum aestivum and Triticum urartu and Aegilops speltoides with 12 samples.

Results

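The features described here are array features, each standing for 1 transcript consensus sequence, that were high in rye (Secale cereale) seedlings and lower in 5 wheats and wheat relatives. They were chosen by their measured levels. The deposited intensities were put on the log2 scale, values under 7 were set to 7, and the 2 arrays of each plant were averaged. The 6 plant means were then sorted. A feature qualified where the widest gap between neighbouring means was at least 2 (log2, which is 4-fold) and rye alone lay above it. Of 56855 features, 390 qualified (0.686%), and the 200 with the widest gap are called rye-high features below. All 200 had 2 probes each.

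Rye is a diploid cereal of the same tribe as wheat, the Triticeae, and carries the R genome. Bread wheat is a hexaploid with the A, B and D genomes, and its 3 copies of a gene (homoeologues) are close in sequence to one another and to the rye gene. Long oligonucleotide probes therefore often read several of these plants at once, and lose signal as the sequences drift apart. A feature that is high in rye alone can come from a transcript that the other plants make less of, or from a sequence that their transcripts match less well. In these data the 2 cannot be told apart.

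The study hybridised total RNA from whole seedlings, leaf and root together, grown for 10 days to the third leaf stage, on 12 single-colour (Cy3) NimbleGen arrays, 2 per plant. The diploids were Triticum urartu (labelled the A genome progenitor), Aegilops speltoides (labelled the B genome progenitor), Aegilops tauschii (D genome progenitor) and rye. The others were a hexaploid wheat and a hexaploid wheat-rye line labelled 2BS.2RL, in which the name denotes a short arm of wheat chromosome 2B joined to the long arm of rye chromosome 2R. No cultivar name is used here, no treatment is labelled, and each array is a pool of 2 seedlings. With whole seedlings, fewer cells of a type and less RNA per cell cannot be told apart. Array medians ran from 1588 to 1667 intensity units over all features, and the arrays of a plant correlated across features at r = 0.968 or more. The series pairs no feature ID with a gene name, so the features are given by ID, and no role is assigned to any of them.

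The labels of the hexaploid arrays bear on what follows. Among features with a gap of at least 2, rye and the arrays labelled translocation alone lay above the gap in 2 cases, and rye and wheat alone in 11. With Ae. speltoides added to the high group the counts were 1 and 10. By label the rye arm is in the translocation line, and that line has the smaller count of each pair. Why this is so was not tested, and the labels were kept as deposited. The choice of the rye-high features treats both hexaploid lines alike, so exchanging their labels would leave all 200 in place. It would turn the sign of the difference between the lines and give each value printed for wheat to the translocation line, and the other way round.

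Rye-high features spanned a range of levels in rye from 9.72 to 13.62 (log2, mean of 2 arrays), with a median of 11.69. The median percentile of their levels among all features in rye was 69.0, and 81 of the 200 were among the brightest 25% there. In each of the other plants 165 to 173 of them were in the dimmest 25%. Their median levels were 6.98 in T. urartu, 7.04 in Ae. speltoides, 6.88 in Ae. tauschii, 6.75 in wheat and 6.80 in the arrays labelled translocation, against medians of 10.63 to 10.70 over all features. Array by array, the median was 11.81 and 11.65 in rye and 6.68 to 7.09 on the 10 other arrays. Within every feature all rye arrays lay above all others: the distance from the lower rye array to the highest of the 10 was 1.57 at the least and 3.30 at the median, and was 2 or more in 196. These levels chose the features and are given as a description.

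**Figure D1:**
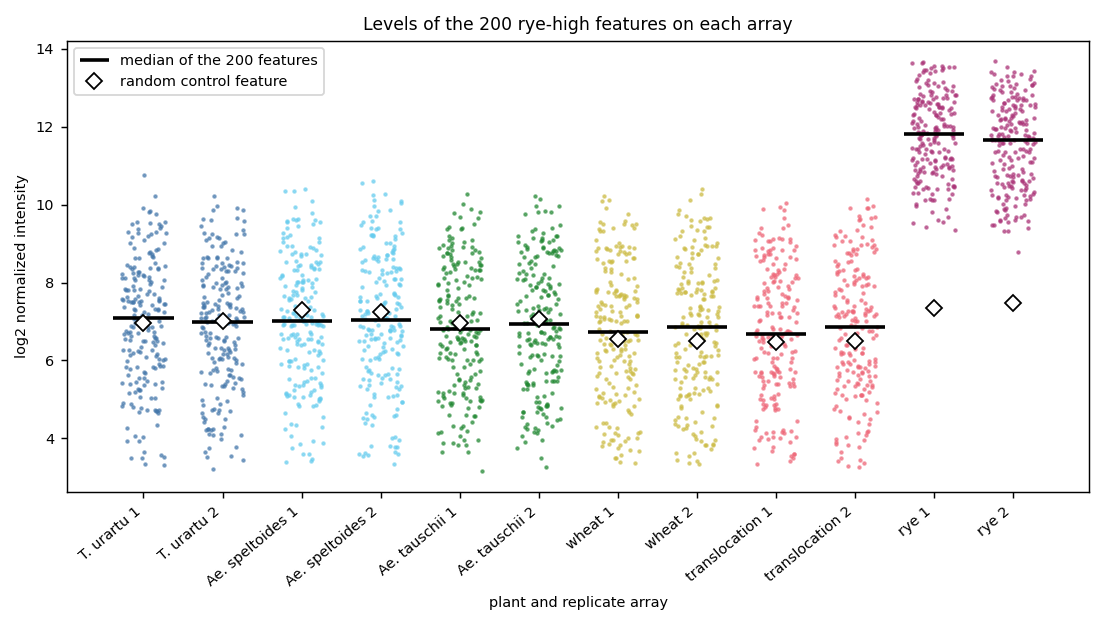
Log2 normalized intensity (y axis) of the 200 rye-high features on each of the 12 arrays (x axis). Each point is a feature, the bar is the median of the 200 and the open diamond is the random control feature of that array. The rye medians are 11.81 and 11.65, and the 10 other medians lie between 6.68 and 7.09, close to the control.

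**Figure D2:**
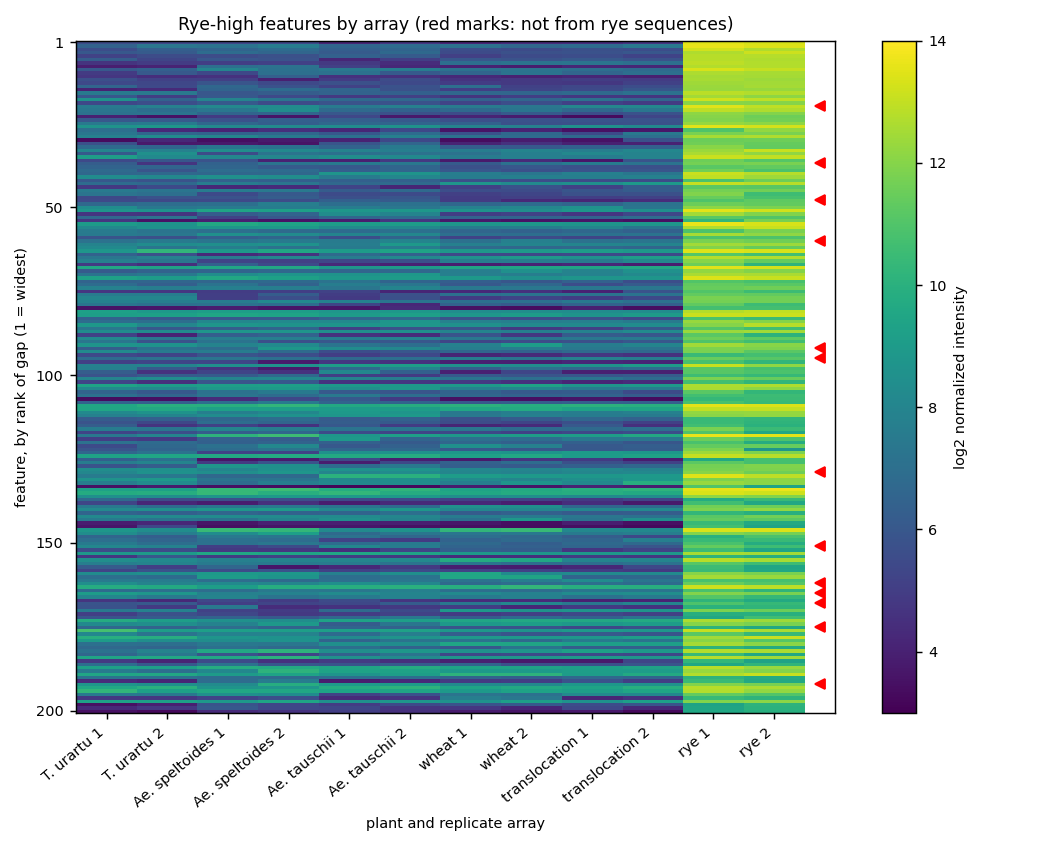
Log2 normalized intensity (colour) of the 200 rye-high features (rows, ordered by the width of the gap, 1 the widest) on the 12 arrays (columns). Red marks show the 13 features that were not designed from rye sequences. The other 5 plants are dark in some rows and of middle brightness in others, and rye is the brightest in every row.

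Whether such a feature was detected outside rye depended on the feature. Each array carries a random-sequence control, summarised from 6570 probes and used here as the background. It read 7.34 and 7.47 in rye and 6.47 to 7.30 elsewhere (log2). All 200 features were above it on both rye arrays. On the 10 other arrays, 58 features were at or below it throughout and 62 were above it throughout. The remaining features were in between. By plant, 104 features were at or below the control on both arrays of Ae. speltoides, 96 in Ae. tauschii, 86 in T. urartu, 85 in the arrays labelled translocation and 82 in wheat. These are 52%, 48%, 43%, 42.5% and 41%, against 11.4%, 9.87%, 9.79%, 6.96% and 7.36% of all features. Of these plants the control was highest in Ae. speltoides (7.27) and lowest in translocation (6.48) and wheat (6.53), so the order of the counts is not settled. Against the control, the working name "detected in rye alone" holds for 58 of the 200. The rest were higher in rye and measurable in at least 1 array of another plant. The control is no true detection limit, since features lay well below it on every array.

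The widest gap belonged to Scereale_ESTC003820, designed from a rye sequence, at 6.37 above the floor of 7. It read 13.46 and 13.29 in rye (log2). In the other plants it read 5.56 and 5.41 in T. urartu, 5.36 and 5.37 in Ae. speltoides, 4.15 and 4.75 in Ae. tauschii, 4.15 and 4.41 in wheat, and 4.46 and 4.68 in the arrays labelled translocation. All 10 values were under the control. On the deposited scale rye was thus at least 68.6-fold higher than Ae. speltoides and at least 119-fold higher than translocation. These bounds set each value below the control to the control. They and the folds of rye given below hold on that scale only. The control itself averaged 7.41 in rye, 7.27 in Ae. speltoides and 6.48 in translocation. Over the 200, the median of rye minus wheat was 4.60 on that scale. It was 4.14 with cyclic loess scaling and 3.72 with each array taken relative to its random control. Scereale_ESTC003859 came next with a gap of 6.12. It read 13.64 and 13.42 in rye, and its next highest plant was Ae. speltoides with 7.20 and 7.63. It was above the control on 6 of the 10 other arrays, so here the other plants were near background rather than below it.

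At the other end were features with clear signal in every plant. Scereale_ESTC002574 was the brightest in rye, at 13.55 and 13.68, and also the highest of the 200 in Ae. speltoides, at 10.35 and 10.60, and in the arrays labelled translocation, at 9.95 and 10.14. It read 9.30 and 9.26 in T. urartu, 9.82 and 10.21 in Ae. tauschii and 9.40 and 9.67 in wheat. Rye was 8.82-fold above Ae. speltoides. The highest of the 200 in Ae. tauschii was Scereale_ESTC003215, with 10.27 and 9.80 there, 13.37 and 13.20 in rye, and 9.57 to 10.35 on the remaining arrays. Scereale_ESTC002089 was highest in T. urartu, but its 2 arrays there were 10.75 and 9.13, so the rank rests on 1 array. Its rye arrays were 13.04 and 12.56. In each of these 3 features all 12 arrays were above the control, and rye still stood clear of the rest.

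The last features kept were Scereale_ESTC001316 (gap 2.724) and Scereale_ESTC005161 (2.722, and the lowest of the 200 in rye, with 9.56 and 9.89). The first left out were Scereale_ESTC004681 (2.719) and Scereale_ESTC005816 (2.715). Both features inside were under the control on all 10 other arrays. Scereale_ESTC005816 was as well, while Scereale_ESTC004681 was next highest in wheat, at 10.02 and 10.62, against 13.02 and 13.06 in rye. The limit of 200 thus falls between features of like gap.

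Since the level in rye was the basis of the choice, the arrays of 1 replicate number were used to choose and those of the other to measure. The labels do not say that arrays with the same number belong together. Chosen on the 6 arrays numbered 1, 200 features had a median gap of 3.61. On the 6 arrays numbered 2 their median distance from rye to the next plant was 3.25, 177 met the rule again, and rye was the highest plant in 196. Chosen on the arrays numbered 2, the median gap was 3.39. The distance was 3.55 on the arrays numbered 1, where 190 met the rule again and rye was the highest in 199. The lowest values on the arrays not used were -0.53 and -0.73. The split measures the same distance again on other arrays of the same plants. It shows only how well that distance repeats between arrays. Of the 200 rye-high features, 170 were in the first set and 178 in the second. The 200 were chosen on plant means that include the arrays used for each set. These overlaps are therefore in part fixed by the choice, and nothing is read from them.

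**Figure D3:**
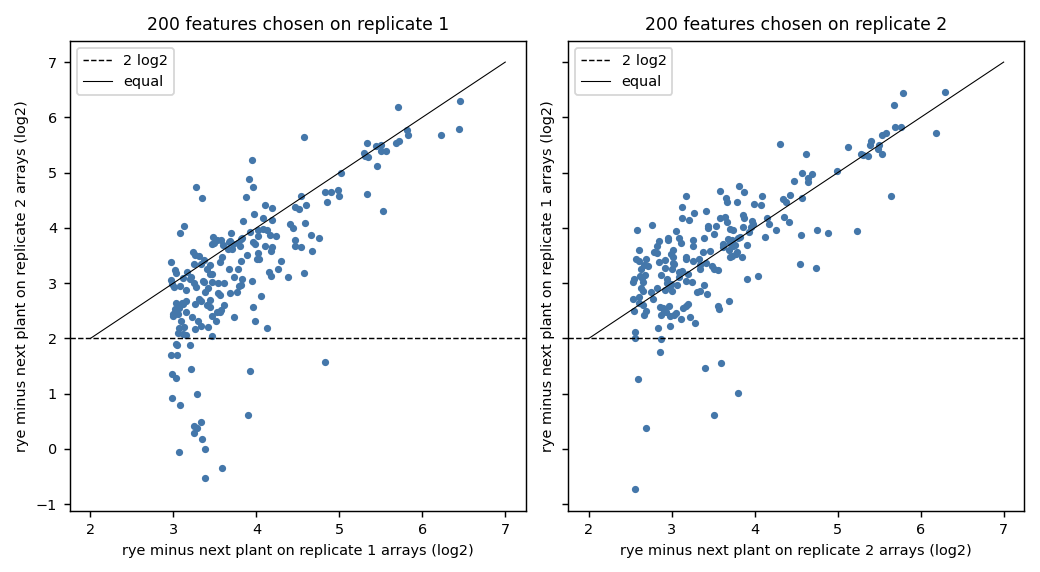
Distance from rye to the next highest plant (log2, values under 7 set to 7) on the arrays used for the choice (x axis) and on those not used (y axis), for 200 features chosen on replicate 1 (left) and 200 chosen on replicate 2 (right). The dashed line marks 2 and the solid line equal values. On the arrays not used, 177 features on the left and 190 on the right met the rule again, and the lowest points are at -0.53 and -0.73.

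The 2 rye arrays did not give every feature the same level. They were more than 1 log2 apart in 16 of the 200 (8%), against 4.95% of all features. Rye replicate 2 was the lower in 12 of the 16 and the higher in 4. Over all 200 the median of replicate 2 minus replicate 1 was -0.22, against -0.01 over all features. The largest distance was in Scereale_ESTC005638, at 11.83 and 8.80 in rye. Its 10 other arrays lay between 5.91 and 7.23, all under the control. With its rye arrays 3.03 log2 apart, its rye level is poorly known.

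By ID prefix, 187 of the 200 (93.5%) came from rye sequences, 11 from bread wheat and 2 from einkorn (T. monococcum). Over the whole array 10.1% of features had the rye prefix, 75.1% the bread wheat prefix and 10.1% the einkorn prefix. The prefix was not used in the choice. None of the 2489 features from Ae. speltoides, the 114 from Ae. tauschii or the 114 from Ae. squarrosa sequences was among the 200. Of the 5731 rye-derived features on the array, 3.26% were among the 200 and 5.71% among the 390. Of the 5544 rye-derived features outside the 200, 52.2% stayed within 1 log2 over the 6 plants, and in 32.2% some other plant was higher than rye. Rye was 1 log2 or more above every other plant in 636 of them (11.5%). A rye source and a high level in rye thus went together in these features, and the part that probe match has in this was not tested.

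**Figure D4:**
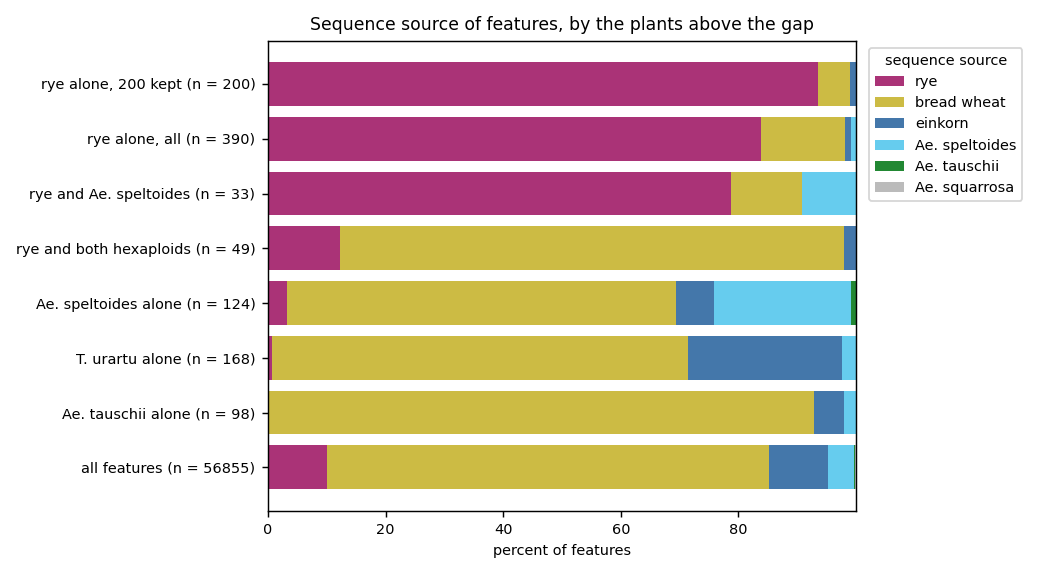
Share of features (x axis, percent) from each sequence source (colour), for sets defined by which plants lay above a gap of at least 2 (rows, with the number of features), and for all features. Rye sequences make up 93.5% of the 200 rye-high features and 10.1% of all features, and bread wheat sequences are the largest share of the sets high in T. urartu, Ae. speltoides or Ae. tauschii alone.

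Sets high in another single plant were made up differently. The same rule without the limit of 200 gave 390 features for rye, 168 for T. urartu, 124 for Ae. speltoides and 98 for Ae. tauschii. Rye sequences were 83.8% of the 390. Einkorn, a close relative of T. urartu, gave 26.2% of the T. urartu set, and Ae. speltoides sequences gave 23.4% of the Ae. speltoides set. Bread wheat sequences were 70.8%, 66.1% and 92.9% of the T. urartu, Ae. speltoides and Ae. tauschii sets. Features high in rye and Ae. speltoides together numbered 33, of which 26 came from rye sequences. Those high in rye and both hexaploids numbered 49, of which 6 did. These shares are descriptions of the array's content as well as of the plants, since the sources are unequal in number, and the differences were not tested.

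The 13 rye-high features that were not designed from rye sequences were singled out after their values were seen. Their levels in rye ran from 9.87 to 13.23 with a median of 11.69, as in the 187 from rye sequences (median 11.69). In wheat, the source of 11 of them, their median was 7.46, against 6.65 for the rye-derived features. Taestivum_ESTC035789 had the widest gap among them, 4.98. It read 13.50 and 12.95 in rye, 7.57 and 7.36 in wheat and 8.04 and 8.11 in the arrays labelled translocation. It read 7.50 and 7.83 in T. urartu, 8.17 and 8.33 in Ae. speltoides and 7.54 and 7.80 in Ae. tauschii, above the control on all 10. Rye was 54.4-fold higher than wheat, although the sequence is a bread wheat one.

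Taestivum_ESTC023255, with a gap of 4.29, read 11.71 and 11.79 in rye, 6.15 and 7.12 in wheat, and 7.60 and 7.20 in the arrays labelled translocation. It lay at 6.26 and 4.70 in T. urartu, 6.47 and 7.22 in Ae. speltoides and 7.53 and 7.39 in Ae. tauschii. The einkorn feature Tmonococcum_ESTC005227 read 10.97 and 11.26 in rye and 5.41 and 5.39 in T. urartu, the closest relative of einkorn on the arrays. It was under the control on all 10 other arrays, and rye was at least 17.4-fold above T. urartu. The other einkorn feature, Tmonococcum_ESTC004839, was above the control on all 12 arrays, with 11.94 and 11.74 in rye. These 2 features thus differ in whether the other plants were measurable at all.

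The other 9 bread wheat features had gaps between 2.87 and 3.92. Taestivum_ESTC018650 (11.69 ± 0.13 in rye, SD, n = 2), Taestivum_ESTC017032 (11.83 ± 0.028), Taestivum_ESTC020927 (11.28 ± 0.20) and Taestivum_ESTC034643 (11.78 ± 0.29) lay between 7.45 and 7.93 in wheat. Taestivum_ESTC023831 (11.88 ± 0.11) was at 8.06 in wheat and 8.94 in T. urartu. Taestivum_ESTC030655 (11.42 and 10.59 in rye) was at 7.98 in T. urartu and 7.88 in Ae. tauschii but 5.29 in Ae. speltoides. Taestivum_ESTC009670 (11.24 ± 0.26) was at 8.11 to 8.28 in the progenitors and 6.83 in wheat, and Taestivum_ESTC034309 (10.65 ± 0.37) at 5.16 to 5.96 in the progenitors and 7.74 in wheat. Taestivum_ESTC040622 (9.87 ± 0.36) was under the control on all 10 other arrays. They share the high rye level and differ in how the other 5 plants are ordered.

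For the comparisons within the 5 other plants, a group-means model was fitted to all 56855 features and 12 arrays with limma, and a feature was called at a Benjamini-Hochberg adjusted p under 0.05 and a log2 difference of at least 1. The choice of the features keeps these 5 plants below rye, which limits how far they can differ. Against each of the 5 in turn rye was called higher for 200 of 200 features. The share of all features called higher in rye was 10.6% against T. urartu, 8.70% against Ae. speltoides, 9.44% against Ae. tauschii, 11.1% against wheat and 11.9% against the arrays labelled translocation. None of the 200 was called lower in rye, against 12.6%, 9.47%, 12.4%, 13.9% and 14.3% of all features in the same order. The choice used these differences and nothing is read from the counts.

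The design sets a hexaploid line with a rye chromosome arm beside hexaploid wheat. In the arrays labelled translocation, 5 rye-high features were lower than in wheat and 0 were higher, by limma. Over all features 0.311% were called lower and 0.331% higher, and among the 5731 rye-derived features 50 (0.872%) and 7 (0.122%). At an unadjusted p under 0.05 by limma, 10 of the 200 were lower and 8 higher, and 233 and 92 of the 5731 rye-derived features. No share over all features was computed at that limit, so nothing is read from these counts. The difference of translocation minus wheat was within 0.5 log2 in 166 of the 200, and its median was 0.07, against -0.001 over all features. For most rye-high features, then, both hexaploid lines read close to the same level. In wheat 82 and in the arrays labelled translocation 85 of the 200 were at or below the control on both arrays. Over all features the shares were 7.36% and 6.96%. A like reading under the control says little about the transcript. The choice also keeps both lines below rye, which limits how far they can differ. Of the 190 features that qualified but were not kept, which include those closer to the hexaploids, 15 were called lower and 0 higher.

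**Figure D5:**
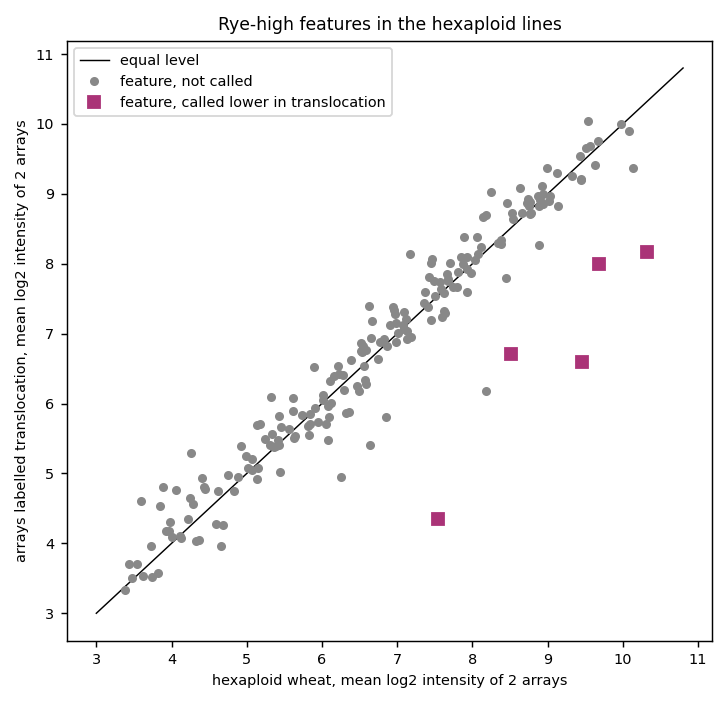
Mean log2 intensity of the 200 rye-high features in the arrays labelled translocation (y axis) against wheat (x axis), 2 arrays each. Squares are the 5 features called lower in translocation, and the line marks equal levels. Most other features follow the line, with 166 of all 200 within 0.5 of it and 189 within 1. At or below the random control on both arrays were 82 features in wheat and 85 in translocation, against 7.36% and 6.96% of all features.

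The largest difference in the measured means was in Scereale_ESTC005496, which read 7.71 and 7.38 in wheat and 4.16 and 4.53 in the arrays labelled translocation. The arrays did not overlap, and the log2 difference was -3.20 (SE 0.21, limma adjusted p = 0.000129). The translocation values were below the control, so its size is only a bound: wheat was at least 2.08-fold higher. In rye it read 10.41 and 10.15, and in the 3 progenitors 4.32 to 5.64, under the control. Wheat was thus the only plant besides rye in which it was measurable. Scereale_ESTC005535 read 9.51 and 9.42 in wheat and 6.54 and 6.66 in the arrays labelled translocation, a difference of -2.86 (SE 0.16, limma adjusted p = 4.29e-05). All 4 values were above the control, as in the 3 features that follow. The translocation values were only just above it here and in Scereale_ESTC004321 below, so each of these differences is best read as a bound. In Scereale_ESTC005534 and Scereale_ESTC003974 both lines were clearly above the control, and the size was measured on both sides. Scereale_ESTC005535 read 12.51 and 12.36 in rye and 9.03 and 8.70 in Ae. speltoides. In T. urartu it was at 7.02 and 6.86 and in Ae. tauschii at 6.95 and 7.20. The controls there were 6.97 and 7.01, and 6.95 and 7.07. The translocation arrays and these 2 diploids were thus all near their own background, and their order is not settled. Wheat lay above Ae. speltoides.

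The 3 others were called as well, and the last 2 of them are named after their values were seen. Scereale_ESTC005534, the highest of the 200 in wheat, read 10.23 and 10.40 there and 8.14 and 8.21 in the arrays labelled translocation (difference -2.14, SE 0.18, limma adjusted p = 0.000561). It read 13.39 on both rye arrays and 10.40 and 10.27 in Ae. speltoides, above T. urartu (8.83 and 8.40) and Ae. tauschii (8.27 and 8.66). Scereale_ESTC004321 differed by -1.81 (8.56 and 8.48 against 6.66 and 6.74, limma adjusted p = 0.00225), and Scereale_ESTC003974 by -1.69 (9.76 and 9.62 against 7.98 and 8.02, limma adjusted p = 0.00104). In all 5 the wheat arrays lay above the translocation arrays. In 4 of the 5 wheat was the next highest plant after rye, and in Scereale_ESTC005534 Ae. speltoides was. All 5 came from rye sequences and had ranks between 139 and 196, towards the narrow end of the gaps.

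The rye-high features were also compared among the diploid progenitors. In Ae. speltoides against T. urartu, 22 were higher and 19 lower, against 8.25% and 9.93% of all features, which is 11% and 9.5% of the 200. In Ae. speltoides against Ae. tauschii 24 were higher and 15 lower (12% and 7.5%, against 7.53% and 9.48% of all features). In T. urartu against Ae. tauschii 21 were higher and 20 lower (10.5% and 10%, against 9.00% and 9.39%). These shares are near those of the whole array. Relative to the random control of each array, the first split became 13 higher and 24 lower and the second 19 and 18, and without Ae. tauschii replicate 1 the second had 15 higher. The direction in which Ae. speltoides stands to the other progenitors is therefore not settled for these features.

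Many of these calls rest on values under the random control, where only a bound can be given. Of the 41 called between Ae. speltoides and T. urartu, 10 had both plants at or below the control on both arrays. With each value below the control set to the control, the difference was 1 log2 or more in 14 of the 41. Between Ae. speltoides and Ae. tauschii this held in 15 of 39 and between T. urartu and Ae. tauschii in 18 of 41. Among features above the control on all 4 arrays, Scereale_ESTC002574 was higher in Ae. speltoides than in T. urartu by 1.20 (limma adjusted p = 0.000734) and Scereale_ESTC005534 by 1.72 (limma adjusted p = 9.48e-05). Taestivum_ESTC023831, named after its values were seen, differed by -1.10 (9.09 and 8.80 in T. urartu, 7.82 and 7.87 in Ae. speltoides, limma adjusted p = 0.00162). In Taestivum_ESTC030655 Ae. speltoides was under the control, and T. urartu was at least 1.63-fold higher (limma adjusted p = 0.000195). Which plant came next after rye also varied: Ae. speltoides in 74 features, T. urartu in 51, Ae. tauschii in 44, wheat in 16 and the arrays labelled translocation in 15. That plant was above the control on both arrays in 38, 31, 22, 14 and 12 of these, in the same order, and the other ranks are among values not clearly above background. These counts were not recomputed under other scalings. The median of wheat minus the progenitor mean over the rye-high features was -0.39 as deposited and 0.17 relative to the random control. The order of diploids and hexaploid lines after rye is therefore not settled.

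Wheat was also compared with the average of T. urartu, Ae. speltoides and Ae. tauschii on the log2 scale. It was higher for 17 rye-high features and lower for 12, which is 8.5% and 6% of them, against 7.67% and 2.94% of all features. The median difference was -0.39 in the 200 and -0.09 over all features. Another scaling moved this split. Cyclic loess gave 21 higher against 3 lower. Taking each array relative to its random control gave 28 higher against 0 lower, and that control was itself lower in wheat (6.53) than in the progenitors (6.99 to 7.27). The median over all features was 0.01 and 0.47 under these scalings, so the 12 features lower in wheat are not settled in direction. Of the 29 calls, 6 had wheat and all 3 progenitors at or below the control. With values set to at least the control, the difference was 1 log2 or more in 14. Since this comparison turns on the hexaploid labels, which were not tested, the arrays labelled translocation were compared in the same way. That second comparison was chosen after seeing the data. By limma 12 features were higher and 15 lower there, against 7.97% and 3.82% of all features. Of these, 9 and 8 were among those called in wheat.

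Some of the features higher in wheat were raised in both hexaploid lines over all 3 progenitors. By at least 1 log2, and without a test, this held in 5 of the 200 (2.5%) and in 2.52% of all features. Lower than all 3 progenitors by as much in both lines were 2 of the 200 (1%) and 0.336% of all features. These measures use both hexaploid lines alike and do not turn on their labels. They were not recomputed under the other scalings. Scereale_ESTC005536, named after its values were seen, read 6.96 and 7.20 in wheat and 7.23 and 7.03 in the arrays labelled translocation, all above the control. It read 4.41 to 5.15 on the 6 progenitor arrays, all below it. Rye read 12.91 and 12.74. The fitted difference from the progenitor mean passed the test (limma adjusted p = 9.79e-06), but wheat was no higher than the control level of the progenitor arrays, so no fold is given. The next 4 features were also named after their values were seen. Scereale_ESTC005537, the next ID, was higher in wheat by 1.51 (limma adjusted p = 0.000333), or by 1.37 with values set to at least the control. It read 8.79 and 8.26 in wheat and 13.03 and 12.82 in rye. Scereale_ESTC004951, Taestivum_ESTC034309 and Scereale_ESTC005045 were higher by 2.48, 2.10 and 1.59, or by 1.45, 0.65 and 1.03 with values set to at least the control. In Scereale_ESTC005496, by contrast, the arrays labelled wheat read above the control and those labelled translocation below it, like the progenitors. The 2 features lower in both hexaploid lines were Taestivum_ESTC009670 and Scereale_ESTC005779, named after their values were seen. In wheat they were at -1.36 and -1.53 against the progenitor mean (-1.10 for the second with values set to at least the control). Both are among the 12 called lower in wheat, whose direction is not settled across scalings. Scereale_ESTC005779 read 6.27 and 5.89 in wheat, 6.06 and 5.86 in the arrays labelled translocation and 6.86 to 8.11 on the 6 progenitor arrays.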

How the data were processed

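The deposited table holds linear intensity values, 1 for each feature on each array. The submitters' processing notes name RMA, with no version or settings in the sources used here. Consensus sequences had 2 probes of 60 bp, and 12 of the 56855 features have 1 probe in the raw probe table. That table also has 12 columns of values whose names fit none of the labels, and these were not used. There were 8 control features, left out of the choice and the tests. No feature ID matched the RefSeq gene table of Triticum aestivum (0 matches), and no probe sequence was used.

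The features and comparisons were chosen with earlier results of these data known. Values were put on the log2 scale, and 1 group-means model was fitted with limma 3.58.1 in R 4.3.3 (6 residual and 2.97 prior degrees of freedom), with p-values adjusted over all features. Precision is limited by 2 arrays per plant. Separate seedling pools stood behind the 2 arrays, per the labels. Features were named by rule: widest gaps per sequence source, those at the limit of 200, the largest called differences between the hexaploid lines, and extremes by plant. Names outside the rule are marked. On simulated data for translocation minus wheat (56855 features), 74 of 100 features changed by 1.5 and 99 of 100 changed by 3 (log2) were recovered, and 13 of 186 calls were false. The changed features were drawn from the whole array with independent noise. These rates therefore do not describe the rye-high features, most of which are dim outside rye.

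Alternatives were the floor, the gap, linear means, cyclic loess, scaling to the random control, a filter on dim features, a difference of at least 2, all 390 features, a replicate block, exchanged hexaploid labels and leaving out each array.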

Additional observations from a re-analysis of the deposited data

How the results depend on the processing

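Under the settings that keep all arrays, 74 of 124 recomputed counts and shares stayed within 1.5 times (for the share of rye sequences, within its binomial interval) and 50 moved, most of them by construction. The number of qualifying features was 158 with a gap of at least 3 and 233 when scaled to the random control. When scaled to the random control, 13 features were higher in Ae. speltoides than in T. urartu, and wheat against the progenitor mean gave 28 higher and 0 lower. With cyclic loess the last was 3 lower. The cause was not tested. With the hexaploid labels exchanged, chosen after seeing the data, wheat against the progenitor mean gave 12 higher and 15 lower. The dimmest 25% by mean level held 149 of the 200, and a feature high in rye alone counts as dim by that mean. Of the 51 left, all 51 were called above each other plant, 2 were called in translocation minus wheat (2 lower), 11 in Ae. speltoides minus T. urartu (6 higher, 5 lower), 9 in Ae. speltoides minus Ae. tauschii (5 and 4), 10 in T. urartu minus Ae. tauschii (3 and 7), and 4 in wheat minus its progenitors (4 and 0). A log2 difference of at least 2 gave, in the same order, 3 (3 lower), 13 (6 and 7), 12 (4 and 8), 14 (8 and 6) and 4 (4 and 0). With all 390 features these were 20 (20 lower), 89 (54 and 35), 77 (47 and 30), 78 (36 and 42) and 63 (41 and 22), and 390 were above each other plant. No share over all features was computed with the filter on dim features or the difference of at least 2. The counts under those settings are therefore not set against the whole array.

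Leaving out each array in turn, where the remaining array of that plant takes its spread from the rest, gave 353 to 474 qualifying features, 177 to 199 of the 200 among the widest 200, and 88% to 94% from rye sequences, with 88% without rye replicate 2. Calls were 5 to 5 in translocation minus wheat (the same 5 features), 37 to 45 in Ae. speltoides minus T. urartu (16 to 25 higher, 17 to 21 lower), 28 to 39 in Ae. speltoides minus Ae. tauschii (15 to 25, 13 to 15), 35 to 45 in T. urartu minus Ae. tauschii (18 to 25, 17 to 20) and 24 to 36 in wheat minus its progenitors (14 to 19, 8 to 17). Features under the control throughout numbered 58 to 61. Nothing in the labels ties same-numbered arrays together, and the correlation of their deviations from the plant means was -0.06 to 0.21, over 0.1 in 9 of 15 pairs of plants. With the replicate block the same 5 features were called in translocation minus wheat, 42 in Ae. speltoides minus T. urartu and 29 in wheat minus its progenitors, and the other counts stayed within 1.5 times.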

Other observations

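The numbers in the rye IDs run from 1 to 6060, and the rye-high features were spread unevenly over them. Of the 187 from rye sequences, 5, 21, 46 and 115 fell in 4 groups of equal size made from all rye-derived features in rising order of number. The meaning of the numbering is not stated in the labels. The choice did not use it, and no test was made.

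Of the 187, 55 had a neighbour by number among the 187, in 31 pairs. No share for other rye-derived features was computed. Whether consecutive IDs share sequence was not tested. A run of 4, Scereale_ESTC005534 to Scereale_ESTC005537, held 2 of the 5 features that were lower in the arrays labelled translocation and 2 that read at least 1 log2 higher in both hexaploid lines than in the progenitors.

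In 2 of these pairs, named after their values were seen, the rye arrays were far apart in the same direction. Scereale_ESTC005978 read 10.95 and 12.23 in rye and Scereale_ESTC005979 read 10.27 and 11.74, so rye replicate 2 was the higher in both. In Scereale_ESTC005818 and Scereale_ESTC005819 it was the lower in both, at 10.99 and 9.32 and at 11.91 and 10.60. Each array is a separate pool of seedlings, and with 2 arrays the spread between seedlings and that between hybridisations cannot be told apart.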
